A study of Mus musculus with 2 samples.

Results

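Stefins are small intracellular proteins of the type 1 cystatin family, which bind cysteine cathepsins and block them. In the mouse most stefin A genes lie in a cluster of recent duplicates on chromosome 16, and several are known as transcripts of maturing neutrophils. Stefin B, encoded by Cstb, is a separate gene on chromosome 10 that most cell types express. The genes described here are Cstdc5, Cstdc4, Stfa2 and Stfa2l1 of the cluster, together with Cstb, 5 of the 32285 genes in the count tables. They were chosen by gene symbol with earlier results of these data in view, and on measured values, since Cstdc5 stood among the genes with the greatest difference between the libraries. Their levels and ratios are therefore given as a description.

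Promyelocytes, granulocyte precursors, were sorted from leukemic bone marrow of mice and profiled by droplet 3′ single-cell RNA sequencing. All cells of both groups carry PLZF/RARA, the fusion oncogene of a form of acute promyelocytic leukemia. The sort took late promyelocytes by surface antigens, positive for Cd45.2, c-Kit, Gr1 and the Fcγ receptor and negative for Cd34. Vehicle mice received intraperitoneal corn oil with 10% DMSO for 7 days, and treated mice received 0.8 to 1 mg retinoic acid by the same route over the same time. A cohort had 3 to 5 mice. How many mice gave cells to a library, their age and their strain are not given in the sources used here.

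Each group held 1 library, so no difference could be tested between groups, and all intervals cover counting error only. The vehicle library kept 5476 cells with 99107718 UMIs (unique molecular identifiers, each marking 1 captured RNA molecule) and a median of 16750 UMIs per cell. The retinoic acid library kept 7140 cells with 110088247 UMIs and a median of 14604. The 2 libraries had 11 cell barcodes in common, whose cells held 124 of the retinoic acid counts of Cstdc5. Promyelocyte markers did not keep 1 pattern: Mpo, a primary granule enzyme, went from 311 to 0.50 CPM (UMIs scaled to a common library size), whereas Elane, neutrophil elastase, went from 62.8 to 7663 CPM. The 10 maturing neutrophil markers summed to 1636 and 62091 CPM. Of the 16 maturation genes that reached 20 CPM, 14 were at least 2-fold higher with retinoic acid, against 3.03% of all genes. Their list was chosen with earlier results of these data known. Ltf, Retnlg, Wfdc21, Cd177, Lrg1, Padi4 and Ceacam10 reached 20 CPM only in the retinoic acid library, where they were higher. Nothing is therefore read from this count. The 8 monocyte or macrophage markers summed to 80.1 and 8.96 CPM. Markers of other lineages also differed, from 700 to 65.3 CPM for the 8 of mast cells or basophils, 1285 to 575 for the 5 of T or NK cells (nearly all Nkg7, with Cd3e at 0 in both), 137 to 35.9 for the 6 of progenitors and 114 to 30.5 for the 7 of eosinophils. Their part in the results was not tested. Of the 3 markers of keratinocytes, another cell type rich in stefins, Krt5 and Krt14 had 0 counts in both libraries and Krt10 had 18 and 1.

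The cluster spanned 335 kb of chromosome 16 (36119946 to 36455392 in GRCm38) and held 10 stefin genes in the tables. Stfa2l1 (ENSMUSG00000059657, 36156811 to 36161953) and Cstdc4 (ENSMUSG00000079597, 36184212 to 36188111) lie on the plus strand. Cstdc5 (ENSMUSG00000071561, 36359382 to 36367748) and Stfa2 (ENSMUSG00000022902, 36403992 to 36408457) lie on the minus strand. Cstb (ENSMUSG00000005054) lies on chromosome 10 at 78425669 to 78427622, plus strand. Each of these 5 genes has 3 exons in GENCODE M21. The last 60 coding bases, all in the final exon, are shown because they place each gene beside its closest copy. Capitals mark bases that differ from Cstdc5 at the same position.
Cstdc5 (chr16:36359460-36359519, minus strand): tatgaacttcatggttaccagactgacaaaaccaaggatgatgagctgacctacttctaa
Stfa1 (chr16:36285236-36285295, plus strand): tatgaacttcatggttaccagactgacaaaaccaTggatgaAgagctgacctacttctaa
Cstdc4 (chr16:36187980-36188039, plus strand): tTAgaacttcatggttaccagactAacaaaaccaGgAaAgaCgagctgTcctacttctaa
Csta2 (chr16:36257313-36257372, plus strand): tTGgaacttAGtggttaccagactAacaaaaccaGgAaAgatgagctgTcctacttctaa
Stfa2 (chr16:36404027-36404086, minus strand): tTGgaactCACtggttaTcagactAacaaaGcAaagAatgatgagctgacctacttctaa
Stfa2l1 (chr16:36161813-36161872, plus strand): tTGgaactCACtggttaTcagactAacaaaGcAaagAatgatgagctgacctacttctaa
Cstb (chr10:78427380-78427439, plus strand): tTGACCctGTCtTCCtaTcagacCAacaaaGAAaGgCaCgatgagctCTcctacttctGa
Stfa1 differed from Cstdc5 at 2 of these 60 bases, Cstdc4 at 8 and Cstb at 23. Stfa2 and Stfa2l1 are identical to each other over the stretch and differ from Cstdc5 at 10 bases.

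Over whole coding sequences the genes fell into near-identical pairs. Cstdc5 was 98.0% identical to Stfa1 and 95.2% to Cstdc6, Cstdc4 was 96.9% identical to Csta2, and Stfa2 was 96.5% identical to Stfa2l1. Across those pairs the 4 cluster genes described here were 75% to 80.6% identical to one another, and 56.8% to 61.8% identical to Cstb. A read from one copy can therefore match another, and how such reads were counted is not given in the sources used here. Of the windows of 91 bases in the last 500 bases of the Cstdc5 transcript, 62.9% lay within 2 mismatches of another stefin transcript and 21.0% matched one exactly. The shares within 2 mismatches were 55.6% for Cstdc4, 36.2% for Stfa2, 41.9% for Stfa2l1 and 0 for Cstb. Among the stefin genes compared, Cstdc4 came this close only to Csta2, Stfa2 and Stfa2l1 only to each other, and Cstdc5 only to Stfa1 and Cstdc6. The split between copies is thus uncertain within these pairs. No window of Cstdc4, Cstdc5 or the Stfa2 pair came within 2 mismatches of a gene of another of these 3 sets.

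Promoters of the 4 cluster genes were present in the RefSeq table for GRCm38.p6, as 250 bases before and 50 after the annotated start, and Cstb had no entry. The promoters of Stfa2l1 and Stfa2 were 90.5% identical over the window, and the other pairs of the 4 were 66.7% to 71.5% identical. The bases before the start of Stfa2l1 and Cstdc4 are shown as 2 cluster promoters whose transcripts share no near-identical windows. At the equal depth per cell described below, Cstdc4 was found in 44.5% of retinoic acid cells with Stfa2l1 and in 4.95% of the others. Stfa2l1 was found in 14.1% of cells with Cstdc4, so most cells with either transcript lacked the other. Capitals mark matches on either strand to the letters TTNNGNAA, the core that C/EBP factors bind.
Stfa2l1 promoter (chr16:36156561-36156810, plus strand): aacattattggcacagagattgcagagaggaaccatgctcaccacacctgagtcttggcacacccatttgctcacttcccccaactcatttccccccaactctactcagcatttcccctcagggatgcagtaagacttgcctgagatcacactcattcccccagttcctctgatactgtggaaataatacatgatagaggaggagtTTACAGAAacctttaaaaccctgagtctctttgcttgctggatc
Cstdc4 promoter (chr16:36183962-36184211, plus strand): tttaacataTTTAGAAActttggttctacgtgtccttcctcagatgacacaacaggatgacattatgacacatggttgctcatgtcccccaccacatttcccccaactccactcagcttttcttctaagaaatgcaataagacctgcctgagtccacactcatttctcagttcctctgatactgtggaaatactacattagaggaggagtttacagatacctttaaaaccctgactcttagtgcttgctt
Each of the 4 windows held 1 such match, and 40.7% of all 32851 promoters searched held at least 1. For Cstdc5 and Stfa2, GENCODE M21 places the start of the gene farther upstream than RefSeq. Only 72 and 156 bases of their windows lie before that start, and neither stretch held the match. None of the 4 held TATAAA or GAGGAAGT, which 13.6% and 3.20% of all promoters held.

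Cstdc5 had the highest level of the cluster in the retinoic acid library. Its sums were 913 counts (9.21 CPM) with vehicle and 86584 counts (786.5 CPM) with retinoic acid, 85.4 times as high (95% interval 80.0 to 91.2). Cstdc4 had 62 and 3583 counts, or 0.626 and 32.5 CPM, a ratio of 52.0 (40.5 to 68.0). Stfa2 had 6 and 2610 counts, or 0.0605 and 23.7 CPM, a ratio of 392 (180 to 1068). The vehicle level of Stfa2 rested on 6 counts in 3 cells, so its ratio is poorly known. These intervals treat molecules as independent and leave out their uneven spread over cells. With vehicle, 10 cells held 508 of the 913 Cstdc5 counts. Stfa2l1 had 2 and 677 counts, or 0.0202 and 6.15 CPM, a ratio of 305 (84.0 to 2521). On the log2 scale the Stfa2l1 ratio was 7.93 with 0.5 counts added to each sum and 6.94 with 3 added. Cstb had 22138 and 20468 counts, or 223 and 186 CPM. It was the only one of the 5 with a lower level in the retinoic acid library, 0.832 times the vehicle level (0.817 to 0.848). UMI counts number molecules and do not grow with transcript length, so these levels can be set beside each other, within the limits of shared reads given above.

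**Figure D1:**
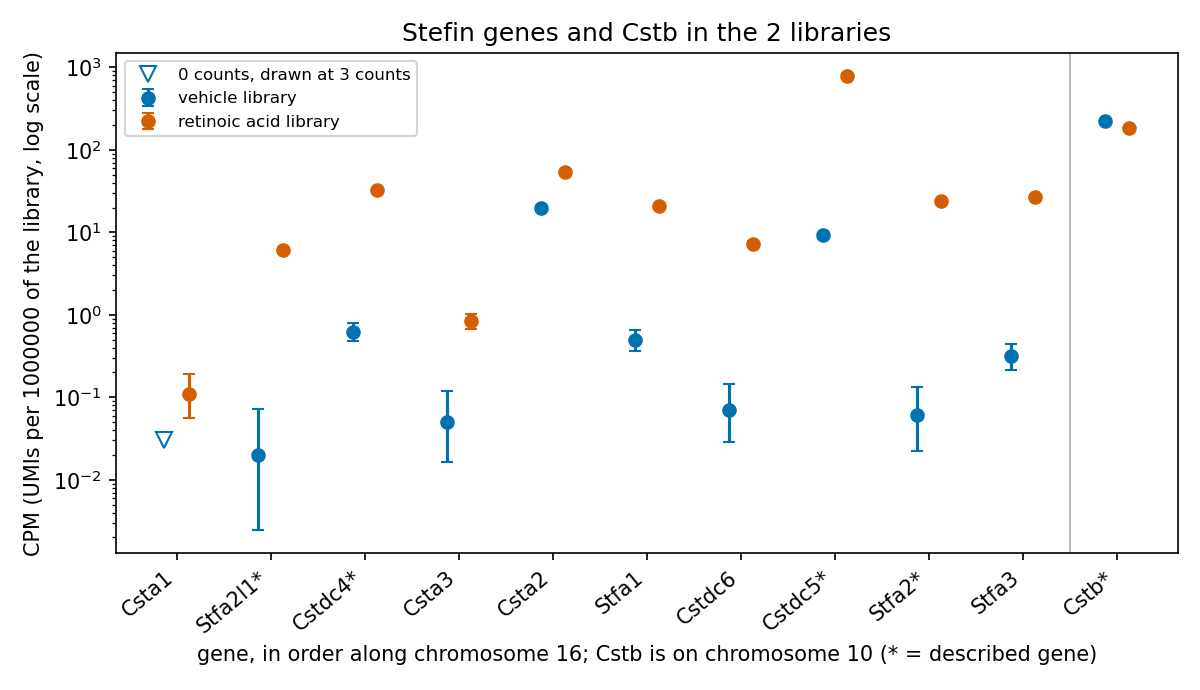
Level of each stefin gene and of Cstb in the vehicle library (blue) and the retinoic acid library (orange), in CPM on a log scale, with exact 95% Poisson intervals; an open triangle marks 0 counts. The 10 cluster genes sit higher in the retinoic acid library, Csta2 by the least among those with 100 counts or more, and Cstb sits at 223 and 186 CPM.

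Of the 5 genes, 4 had at least 20 CPM in either library; Stfa2l1 did not. Of these 4, 3 were at least 2-fold higher with retinoic acid and Cstb was within 2-fold. Over all 5548 genes at that limit, 3.03% were at least 2-fold higher and 8.07% at least 2-fold apart in either direction, with a median log2 ratio of 0.01. Because the members were chosen on this contrast, nothing is read from their count.

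The 6 other cluster genes bear on the same reads. Csta2 was the leading cluster gene of the vehicle library, with 1979 counts (19.97 CPM), against 5939 counts (53.9 CPM) with retinoic acid, a ratio of 2.70. Stfa1 had 49 and 2308 counts (0.494 and 21.0 CPM), and Stfa3 had 31 and 2949 counts (0.313 and 26.8 CPM). These 3 genes encode further stefin A proteins. The remaining ones stayed under 20 CPM, with 7 and 796 counts for Cstdc6, 5 and 93 for Csta3, and 0 and 12 for Csta1. Stfa3, which like Csta1 and Csta3 had no window within 2 mismatches of another stefin gene, gave a ratio of 85.6 (60.2 to 126). Genes other than the stefins were searched for exact matches only, and 0 windows of Stfa3 matched one. Reads that match several copies may also have been discarded, which would lower the sums of these genes unevenly. Summed over the 10 genes, which leaves out how the counted reads were split between copies, the cluster gave 3054 counts (30.8 CPM) with vehicle and 105551 (959 CPM) with retinoic acid, a ratio of 31.1. Csta2 made up 64.8% of the vehicle sum and 5.63% of the retinoic acid sum. Cstdc5 made up 29.9% and 82.0%.

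Stefins bind cysteine cathepsins, whose genes were compared next. Of 11 cysteine cathepsin genes, 5 had at least 20 CPM in either library, and 3 of them were at least 2-fold lower with retinoic acid, against 5.05% of all genes at that limit. None was at least 2-fold higher. Ctsw, the cathepsin of cytotoxic cells, had 24.2 and 2.72 CPM. Ctsl, a lysosomal endopeptidase, had 22.8 and 9.29 CPM, and Ctsh, an aminopeptidase, had 48.4 and 23.3 CPM. Ctsb and Ctsz, both lysosomal carboxypeptidases in at least part of their activity, were within 2-fold, at 37.0 and 39.5 CPM and at 153 and 83.7 CPM. Ctsc, which activates granule proteases, had 0 counts with vehicle and 1 with retinoic acid, while Ctss had 5 and 17. The median log2 ratio of the 5 genes was −1.06, and that of all genes 0.01. Ctsw and Ctsl passed the limit only through the vehicle library, where they were higher, so nothing is read from the count or the median. Of 17 other cystatin genes in the tables, 14 had 0 counts in both libraries. Cst3, the secreted cystatin C, had 490 and 449 CPM, and Cst7, cystatin F of granule-bearing leukocytes, had 813 and 706 CPM, both within 2-fold. These are levels of whole libraries, and levels by maturation are given below.

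For measures per cell, cells were thinned to 5000 UMIs, after which 5282 cells of the vehicle library and 6659 of the retinoic acid library remained; 194 and 481 were too shallow. A Cstdc5 UMI was found in 1.76% of vehicle cells (1.42 to 2.15) and in 57.3% of retinoic acid cells (56.1 to 58.5). The shares for Cstdc4 were 0.170% and 5.66%, for Stfa2 0.0379% and 3.27%, and for Stfa2l1 0.0189% and 1.79%. Cstb was found in 66.8% and 61.3% of cells. Before thinning the retinoic acid shares were 71.6% for Cstdc5, 10.3% for Cstdc4, 4.78% for Stfa2, 3.14% for Stfa2l1 and 87.96% for Cstb. Which of Cstb and Cstdc5 was found in more retinoic acid cells depended on depth and on the UMIs required. At 3000 UMIs per cell the shares were 43.6% and 51.8%, and with 2 UMIs required at 5000 they were 24.7% and 43.7%.

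RNA freed from broken cells can put a UMI into a cell that does not express the gene. Of 13 retinoic acid cells with 5 or more UMIs of eosinophil genes, a lineage taken here as the reference, 1 held Cstdc5, a share of 7.69% (0.195 to 36.0) at a median depth of 9691 UMIs before thinning, against 15152 for all thinned cells. None of the 13 held Cstdc4, Stfa2 or Stfa2l1, which allows up to 24.7%. With 13 cells the background level is poorly known for any of these genes. Cstdc5 was found in 10.2% of the decile of cells with the fewest maturation transcripts, inside the interval of the reference cells, and no expression is read from that share. The share of 92.1% in the highest quartile lay above the interval. Per 100 UMIs of Camp, a secondary granule gene, Cstdc5 had 3.03 UMIs in the lowest quartile and 3.91 in the highest. Per 100 UMIs of Cstdc5, by contrast, Stfa2 had 0.237 in the lowest quartile and 5.27 in the highest, and Cstdc4 had 7.82 and 3.60.

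The UMIs of Cstdc4, Stfa2 and Stfa2l1 were concentrated in few cells. In the retinoic acid library the 1% of cells with most UMIs of the gene held 81.1% of all Stfa2l1 UMIs, 78.0% of those of Stfa2 and 60.3% of those of Cstdc4. The same share was 11.9% for Cstdc5 and 4.70% for Cstb. The richest cell had 60 of its 5000 UMIs from Stfa2, 43 from Cstdc4, 15 from Stfa2l1, 86 from Cstdc5 and 6 from Cstb. The variance of the counts divided by their mean, which is 1 for molecules scattered at random over cells, was 1.03 for Cstb, 5.13 for Stfa2l1, 10.3 for Cstdc4, 16.4 for Cstdc5 and 16.7 for Stfa2. Csta2, the near-identical copy of Cstdc4, had a mean of 0.292 UMIs per cell against 0.173 for Cstdc4, yet a variance ratio of 1.21 and at most 7 UMIs in a cell. Csta2 was found in 23.6% of the cells and Cstdc4 in 5.66%, and 81.2% and 60.2% of these held 1 UMI. The 27 cells with at least 10 Cstdc4 UMIs held 40.7% of its UMIs. How reads were split between these copies is uncertain.

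**Figure D2:**
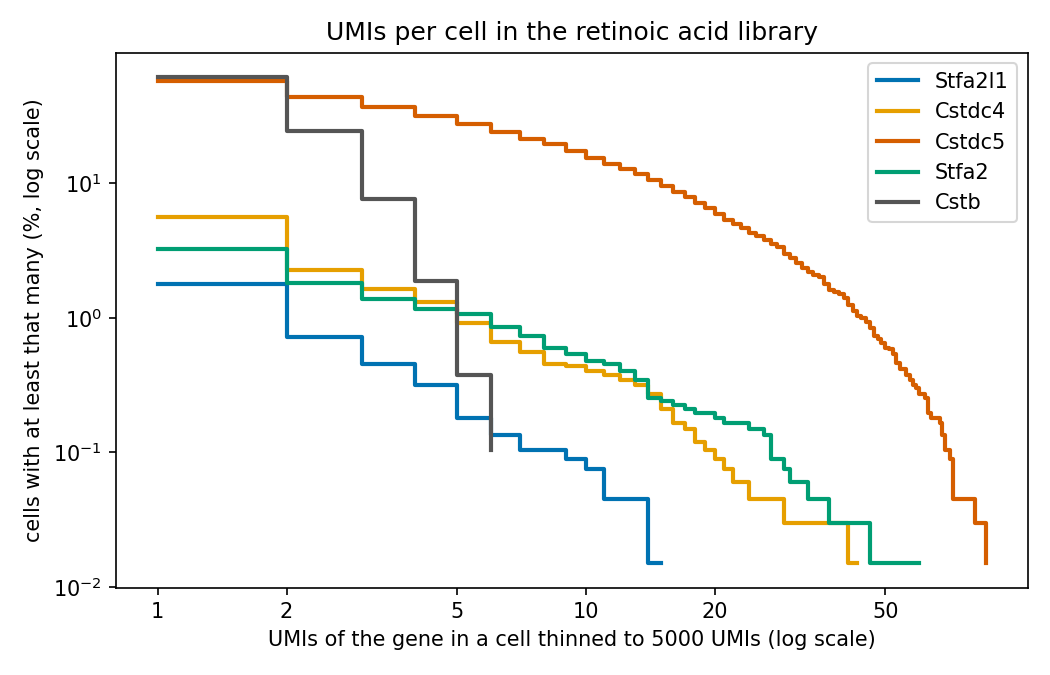
Share of the 6659 retinoic acid cells (log scale, in percent) with at least a given number of UMIs of each gene among 5000 UMIs per cell (log scale). The Cstb line ends at 6 UMIs although it starts at 61.3%, whereas the Stfa2 and Cstdc4 lines start at 3.27% and 5.66% and reach 60 and 43 UMIs.

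Cells were ordered by the share of their UMIs in 26 neutrophil maturation genes, a list that holds none of the 5 genes, and split into quartiles. In the retinoic acid library Cstdc5 had 50.7 CPM in the lowest quartile and 2427 CPM in the highest, a ratio of 47.9 (43.5 to 52.8). Cstdc4 had 3.96 and 87.4 CPM, a ratio of 22.0 (15.6 to 32.3). Stfa2 had 1 UMI in the lowest quartile and 1063 in the highest (0.120 and 128 CPM), and Stfa2l1 had 2 and 260 (0.240 and 31.2 CPM). Their ratios were 1064 (190 to 42051) and 130 (35.6 to 1080). Cstb differed least, with 181 and 204 CPM, a ratio of 1.13 (1.05 to 1.21). With the maturation genes left out of the total, its log2 ratio was 0.55 in place of 0.17. All 5 genes had at least 20 CPM in either quartile, and 4 of them were at least 2-fold higher in the highest quartile, against 4.5% of 5537 genes at that limit. Stfa2l1, Stfa2 and Cstdc4 passed the limit only through the quartile where they were high, so nothing is read from this count. The median log2 ratio over those genes was −0.43. Camp, a gene of the ordering list itself, had a ratio of 37.2. Cathepsin and other cystatin genes differed in direction along this order. Ctsh rose from 16.6 to 59.3 CPM with retinoic acid and from 22.6 to 122 CPM in the vehicle library. In retinoic acid cells Ctsb had 37.2 and 40.5 CPM, Ctsz 93.6 and 60.6, Cst3 486 and 341, and Cst7 836 and 394. Their log2 ratios were 0.12, −0.63, −0.51 and −1.08, so those of Ctsz and Cst3 lay near the median of −0.43 over all genes. Ctsl and Ctsw were not measured by quartile.

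The 4 cluster genes did not follow maturation in the same way. The highest decile of cells held 75.4% of all Stfa2 UMIs and 69.5% of those of Stfa2l1, but 28.9% for Cstdc5 and 25.5% for Cstdc4. For Camp the share was 32.8%, and for Cstb 10.9%. The 5 lowest deciles held 8.09% of the Cstdc5 UMIs and 10.2% of those of Cstdc4, against 0.361% and 0.727% for Stfa2 and Stfa2l1. Cells with a UMI of Stfa2l1 or Stfa2 had a median of 27.7% and 25.9% of their UMIs in the maturation genes. Cells with Cstdc4 or Cstdc5 had 8.20% and 7.62%, and cells with Cstb 3.72%, close to the 3.68% of cells without it. Depth moved with this order: cells with Stfa2l1 had a median of 10851 UMIs before thinning, and cells without it 15216. Its part in the result was not tested beyond the thinning.

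**Figure D3:**
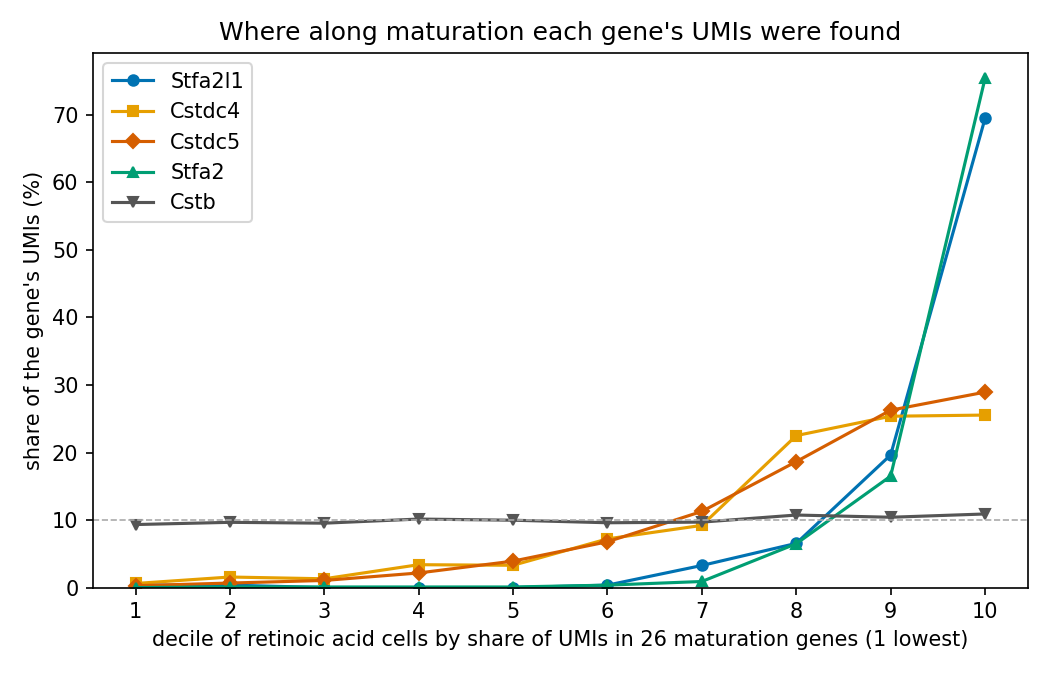
Share of each gene's retinoic acid UMIs (percent) found in each decile of 6659 cells, ordered by the share of UMIs in 26 maturation genes; the dashed line marks 10%. Stfa2 and Stfa2l1 reach 75.4% and 69.5% in the last decile, Cstdc5 and Cstdc4 climb across the deciles to 28.9% and 25.5%, and Cstb stays near the dashed line.

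Cell cycle calls separated the same pairs. In retinoic acid cells called G1, Stfa2 had 83.7 CPM, against 19.7 in S and 11.02 in G2/M, and Stfa2l1 had 17.4, 5.76 and 4.27 CPM. Cstdc5 had 1299, 996 and 650 CPM over these phases. Cstdc4 had 41.6 and 41.9 CPM in G1 and S, whose intervals overlap, and 25.3 CPM in G2/M. Cstb had 214, 191 and 178 CPM. Maturation moved with the phase, with median maturation shares of 5.64%, 3.92% and 3.10%. Within the highest maturation quartile Stfa2 still had 205 CPM in G1 and 72.3 and 61.6 CPM in S and G2/M, where Cstdc4 had 75.6, 104 and 89.4 CPM. The median maturation share inside that quartile was again higher in G1 (29.5%) than in S (18.5%) or G2/M (15.6%), so phase and maturation cannot be told apart here. In vehicle cells Cstb had 276 CPM in G1 and 194 CPM in both S and G2/M.

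Cells with a rarer cluster gene held the others more often than cells without it, although most of them lacked any given other: of cells with Stfa2, 25.7% had Stfa2l1 and 28.0% had Cstdc4. Among the 119 retinoic acid cells with a Stfa2l1 UMI, 47.1% also had Stfa2, against 2.48% of the other cells, and 44.5% had Cstdc4, against 4.95%. Cstdc5 was found in 98.3% of them and in 56.6% of the others, whereas Cstb was found in 58.8% and 61.3%. Stfa2 and Stfa2l1 have near-identical windows, but Stfa2l1 and Cstdc4 have none within 2 mismatches. Among cells with Cstdc4, 16.2% had Stfa2, against 2.50% of the others, again with no near-identical window between them. Within the highest maturation quartile, Stfa2 was found in 49.1% of the 108 cells with Stfa2l1 and in 8.68% of those without, and Cstdc4 in 45.4% and 6.88%. The difference for Cstdc5 shrank there from 41.7 to 7.49 points, since 91.6% of the quartile's cells without Stfa2l1 had Cstdc5. Of all 6659 cells, 42.0% had none of the 4 cluster genes, 50.1% had 1, 6.26% had 2, 1.25% had 3, and 29 cells (0.436%) had all 4.

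Cells with at least 10 UMIs of a gene differed in how often they held the others. Of the 27 cells with at least 10 Cstdc4 UMIs, all had Cstdc5, 15 had Stfa2l1, 14 had Stfa1 and 12 each had Stfa2 and Stfa3, so 15 had no Stfa2. Their summed levels were 3467 CPM for Cstdc4, 8496 for Cstdc5, 1467 for Stfa2, 919 for Stfa1 and 193 for Cstb. The last value is near the 192 CPM of Cstb over all thinned cells. These 27 cells held 40.7% of all Cstdc4 UMIs, and 22 of them lay in the highest maturation quartile and 5 in the one below. Of the 32 cells with at least 10 Stfa2 UMIs, 31 lay in the highest quartile, 22 had Stfa2l1 and 18 had Cstdc4. Of the 1024 cells with at least 10 Cstdc5 UMIs, 215 had Cstdc4, 182 had Stfa2 and 101 had Stfa2l1. The cells were picked by a gene's own level, so its value in them is a description.

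Across the 6659 cells the Pearson correlation of log(UMIs + 1) was 0.50 for Stfa2l1 with Stfa2, 0.39 for Stfa2l1 with Cstdc4, 0.32 for Cstdc4 with Cstdc5 and 0.31 for Cstdc5 with Stfa2. Cstdc4 and its near-identical copy Csta2 had 0.11. Over the 5 cluster pairs with near-identical windows the correlations ran from 0.07 to 0.50, and over the other 40 pairs from −0.01 to 0.39. The 40 include pairs with Csta1 and Csta3, whose 2 and 35 UMIs are too few for a correlation to be informative. Cstb had at most 0.04 with any of the 10 cluster genes. Its variance ratio of 1.03, near that of random scatter, limits how high any correlation with it can reach. All points come from 1 library, thinned to the same depth.

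**Figure D4:**
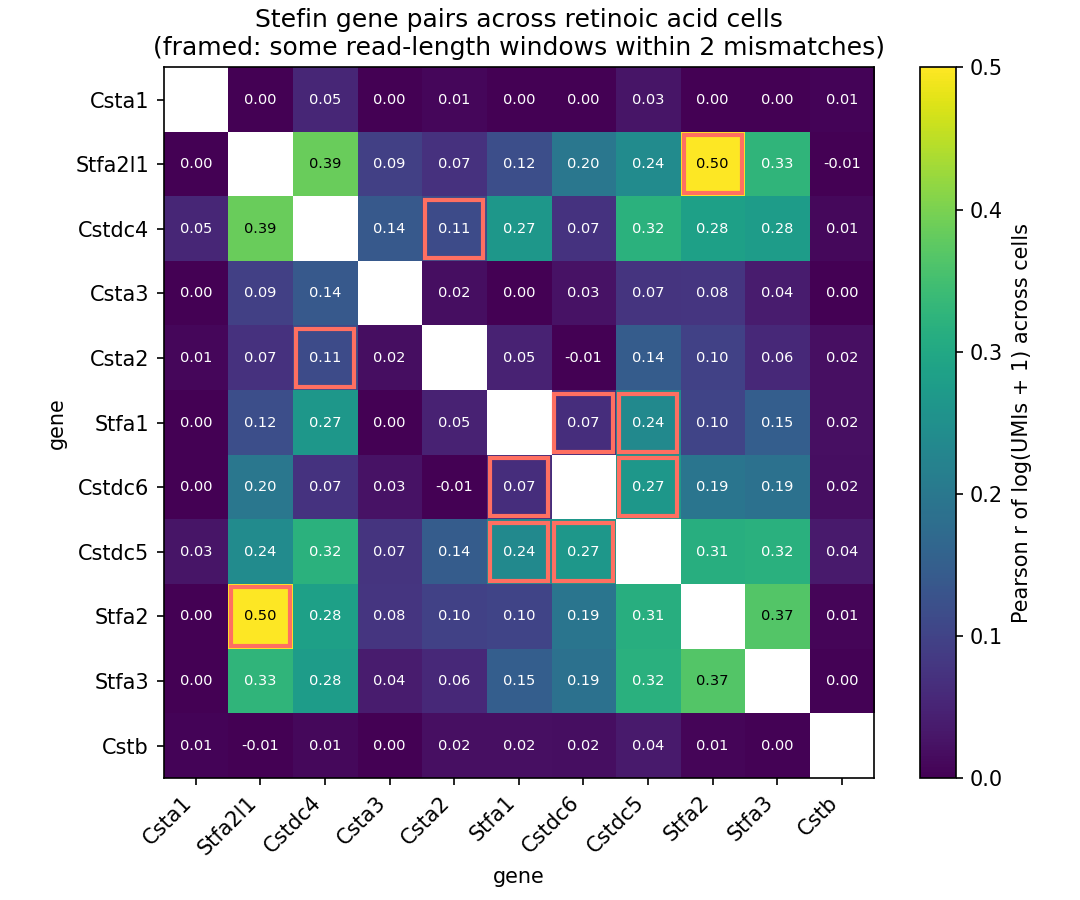
Pearson correlation of log(UMIs + 1) between the 10 cluster genes, in order along the chromosome, and Cstb across 6659 retinoic acid cells; framed squares are the 5 pairs with read-length windows within 2 mismatches. The 4 highest values, 0.33 to 0.50, lie among Stfa2l1, Cstdc4, Stfa2 and Stfa3, Cstdc5 has 0.24 to 0.32 with these genes, and the Cstb row stays at or below 0.04.

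Outside the 5 genes, the patterns most like each were sought among 5132 genes with at least 20 CPM in the retinoic acid library, over the same cells. For Cstdc5 the nearest were the granule and calprotectin genes Ngp (0.64), Camp (0.62), S100a9 (0.62), S100a8 (0.53) and Lcn2 (0.53). For Stfa2 they were Stfa3 (0.37), Ly6g (0.28), Ceacam10 (0.27), Ifitm6 (0.27) and Lcn2 (0.25). Ly6g encodes an antigen seen by the Gr1 antibody used in the sort. For Stfa2l1 they were Stfa3 (0.33), Ly6g (0.20), Ifitm6 (0.20), Anxa1 (0.19) and Lgals3 (0.19). For Cstdc4 they were Stfa3 (0.28), Stfa1 (0.27), S100a9 (0.16), Ngp (0.12) and S100a8 (0.12). For Cstb the nearest gene, Msrb1, a methionine sulfoxide reductase, reached 0.08, followed by Myl6, Anxa2, S100a11 and H2-D1. No gene at this limit tracked Cstb from cell to cell beyond that value.

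In the vehicle library most Cstdc5 counts came from a few cells. The 30 cells with 5 or more Cstdc5 UMIs held 683 of its 913 counts (74.8%). Their median maturation share was 2.97%, against 0.170% in the 5280 cells without Cstdc5, and their Camp level was 4698 CPM against 100 CPM. Mpo was at 40.4 CPM in them and at 316 CPM in the cells without Cstdc5. Cstdc4 had 70.1 CPM in those 30 cells and 0.231 CPM in the cells without Cstdc5, and Cstb had 304 and 223 CPM. Of the 62 vehicle counts of Cstdc4, however, 22 came from 1 cell. After thinning, 3 of the 9 vehicle cells with Cstdc4 held Cstdc5. By quartiles of maturation share, Cstdc5 rested on 1 thinned UMI in the lowest and 261 in the highest (0.151 and 39.5 CPM). Cstb had 210 CPM in the lowest vehicle quartile and 278 CPM in the highest, a ratio of 1.32 (1.23 to 1.42).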

How the data were processed

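Droplet 3′ libraries of 1 vehicle and 1 retinoic acid group were analysed. The deposited files give whole UMI counts for each gene in each cell. Per the file headers and the submitters' processing notes they come from Cell Ranger 4.0.0, and the notes name mm10 and GRCm38.p4. The gene annotation, the rule that called cells and the handling of reads matching several genes are not given in the sources used here. The members and gene lists were chosen with earlier results of these data known.

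Cells with at least 1000 UMIs, 500 genes and at most 10% mitochondrial UMIs were kept. Counts were summed per library as CPM, and ratios use 0.5 added counts on the log2 scale, while the folds printed use the counts alone. Sums carry exact Poisson, ratios and shares exact binomial 95% intervals. Each group is 1 library, so no test was made. For a count of 0 the upper limit of the interval was 0.037 CPM with vehicle and 0.034 CPM with retinoic acid. Such counts are drawn at 3 counts, or 0.030 and 0.027 CPM. Scrublet called 3 and 6 cells (0.0548% and 0.0840%), taken as the caller not having worked, so no doublets were removed. Phases came from scanpy 1.11.5. The calculation of ratios and intervals was checked on simulated data. All 200 of 200 genes changed 4-fold were recovered among 5173 genes, and 95.5% of their intervals held the true ratio. The simulated counts were Poisson draws for genes with at least 20 CPM in the vehicle library. They do not cover the lower vehicle levels and larger ratios of the cluster genes described here, their uneven spread over cells, or shared reads.

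Gene coordinates are GENCODE M21 (GRCm38), which matched 32158 of 32285 identifiers by Ensembl ID. Transcript windows and coding sequences were compared with transcripts of that release, and promoters are from RefSeq. Named genes were the 5 members, the stefin cluster, cystatin and cathepsin genes that reached 20 CPM in a library, the 5 genes most correlated with each member, and some others chosen after their values were seen. Alternatives were TMM scaling (edgeR 4.0.16), equal weight per cell, other cell filters, depths, UMI limits and gene lists, given in the closing section.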

Additional observations from a re-analysis of the deposited data

How the results depend on the processing

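Over 72 alternative values 49 stayed within counting error, 23 moved beyond it and 0 changed direction. Shares of cells and numbers of genes have no direction to change, so the last count bears only on the ratios and differences. The order of Cstb and Cstdc5 by share of retinoic acid cells, which changed with depth and UMI limit, is not part of it. With 3 counts added to each sum the log2 ratio of Stfa2l1 was 6.94 in place of 7.93, inside its counting interval. No paired analysis was possible because there was 1 library a group. The log2 ratio of Cstdc5, 6.42, was 6.23 with equal weight for every cell, 6.31 without the 5% of cells with the highest doublet scores, and 4.96 for the 10 stefin genes summed, an alternative chosen after seeing the data, as was removing the shared barcodes. The log2 ratio of Cstb was −0.18 with TMM scaling and −0.31 with equal weight. At 3000 UMIs per cell the shares of retinoic acid cells with Stfa2l1, Cstdc4, Cstdc5, Stfa2 and Cstb were 1.40%, 4.11%, 51.8%, 2.70% and 43.6%. With 2 UMIs required they were 0.721%, 2.25%, 43.7%, 1.802% and 24.7%. The excess of Cstdc5 in cells with Stfa2l1 was 46.8 points at 3000 UMIs and 7.49 points in the highest maturation quartile. Between the highest and lowest quartiles, Cstdc4 had a log2 ratio of 3.85 when S100a8 and S100a9 left the list, and Cstdc5 and Cstb had 5.95 and 0.55 with the maturation genes left out of the total. Genes at least 2-fold apart numbered 923 with a limit of 5 CPM, 133 with 100 CPM and 6081 with none, against 448. The cause of these shifts was not tested, except that other limits change the number of genes compared and other depths the UMIs per cell. Sums of 2 and 6 vehicle counts limit what can be said of Stfa2l1 and Stfa2.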
